A study of Mus musculus with 10 samples.

Results

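Serotonin receptors were followed in the cerebral cortex of mice that lack *Crtc1*, the CREB-regulated transcription coactivator 1, and of their WT littermates. The members are all probe sets whose annotation names 1 of 10 receptor genes and no other gene. This gave 16 of 45037 non-control probe sets, which read 9 of the 10 genes. No probe set named *Htr2a* in the annotation used here, and this receptor was not analysed. The arrays were GeneChip Mouse Genome arrays (Affymetrix), 1 per mouse, and carry 1 log2 value per probe set. RNA came from 5 WT and 5 *Crtc1*-/- female C57BL/6N mice, 2 months of age, with no treatment. The loss of *Crtc1* concerns the whole animal, and the sources used here name no cell type or promoter that would restrict it. The methods describe mice that were housed alone before tissue collection and experiments that were run over several batches of mice, and the batch of each array is not given in the sources used here.

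Serotonin (5-HT) reaches the cortex from the raphe nuclei of the brainstem and acts there on a family of receptors. All but one of the classes are G protein-coupled receptors. The 5-HT1 and 5-HT5 classes act mainly through Gi/o proteins, which lower cAMP and open potassium channels. The 5-HT2 class acts through Gq and phospholipase C, and the 5-HT4, 5-HT6 and 5-HT7 receptors act through Gs and raise cAMP. The 5-HT3 receptor is a cation channel, which marks a large group of cortical interneurons. CRTC1 is a coactivator of CREB, the factor that cAMP and calcium signals activate.

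*Crtc1* itself was read first, as a check of the labels. Its brightest probe set read 9.69 ± 0.15 in WT mice and 6.38 ± 0.27 in *Crtc1*-/- mice (SD, n = 5 per genotype, log2 scale), and 2 of its 3 probe sets were lower. The cortical neuron markers that define the tissue, such as *Slc17a7*, *Tbr1* and *Neurod6*, lay between the 73.8th and the 99.9th percentile of brightness of all probe sets. Pairs of arrays correlated at 0.994 to 0.998, and none stood apart. Of all 45037 probe sets, 136 (0.302%) passed, 84 of them lower (0.187%) and 52 higher (0.115%) in *Crtc1*-/- mice, by limma's moderated statistic at an adjusted p of 0.05 after Benjamini-Hochberg correction over all of them. Differences are given throughout as *Crtc1*-/- minus WT on the log2 scale, with their standard error (SE).

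Of the 16 receptor probe sets, 1 rose, none fell and 15 did not pass (4 of the 16 had an unadjusted p under 0.05, where 7.19% of all probe sets did). The probe set that rose reads *Htr7*, the Gs-coupled 5-HT7 receptor. It was 1.23-fold brighter in *Crtc1*-/- mice, with a 95% confidence interval of 1.14 to 1.33. The median difference of the 16 was 0.023, against −0.00021 over all probe sets, with 9 values above 0 and 7 below. The receptors ran from −0.27 at *Htr1b* to 0.30 at *Htr7*, with SEs from 0.05 to 0.16. The 2 genotypes failed to overlap at 1 of the 16, as they did at 2.08% of all probe sets (1.37% lower and 0.713% higher in *Crtc1*-/- mice).

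How bright each receptor was limits what can be read from it, and no detection calls were used. Brightness was therefore set beside that of probe sets of transcripts that a female cortex lacks or hardly holds. The 13 probe sets of 6 Y-linked genes, which female mice do not carry, had means over the 10 arrays between 2.65 and 5.81 on the log2 scale, with a median of 2.88. The brightest of them names *Sry*, whose other probe set read 2.81, and *Zfy2* followed at 5.15. *Usp9y*, the next below, read 3.56, so *Sry* and *Zfy2* alone set the top of the range. Of the receptor probe sets, 9 were brighter than all 13, and they read *Htr1a*, *Htr1b*, *Htr1f*, *Htr2c*, *Htr3a*, *Htr5a* and *Htr7*. Both probe sets of *Htr4* (means of 3.28 and 3.23) and the single one of *Htr6* (4.82) lay inside the Y-linked range. A second reference, 30 probe sets of 17 genes best known from other organs, reached higher, with a 90th percentile of 6.05 and *Krt10*, a keratin, at 7.88. It is not free of genotype differences, since *Lor*, loricrin of the skin, fell by 0.38 at a mean brightness of 6.31 with no overlap (limma over genes, adjusted p = 0.0120). Only *Htr2c* (7.95) lay above all of these, while 8 receptor probe sets lay above their 90th percentile. The array also carries 4 further receptors, *Htr1d*, *Htr2b*, *Htr3b* and *Htr5b*, and their 6 probe sets were all inside the Y-linked range and did not pass the test. Probe sets differ in how strongly they bind, so the order of brightness is not an order of transcript amounts.

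**Figure D1:**
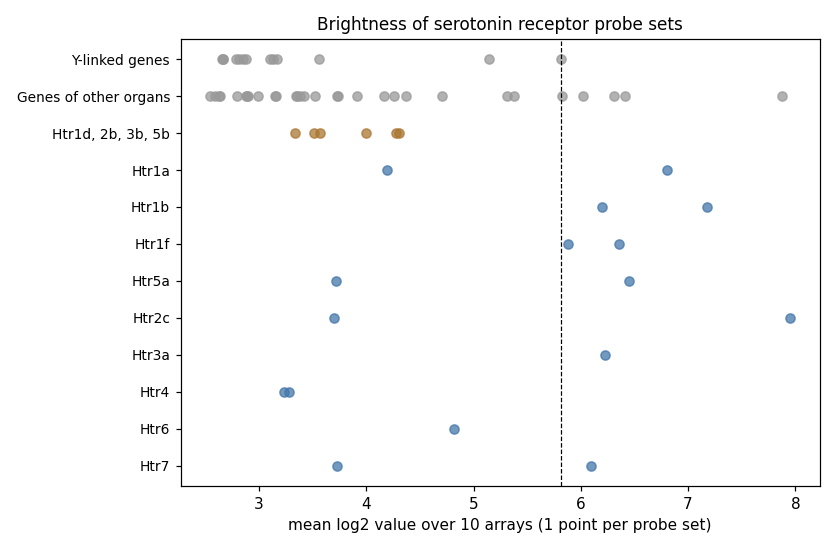
Mean log2 value over 10 arrays (x axis) of each probe set, by gene or gene group (y axis), with receptors in blue, 4 receptors outside the members in brown and the reference groups in grey. The dashed line is the brightest Y-linked probe set at 5.81, and 9 of the 16 receptor probe sets lie to its right.

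In the 6 receptors where 1 probe set is annotated to a RefSeq transcript and the other to a different sequence record, the RefSeq one was the dimmer each time. In *Htr1a*, *Htr2c*, *Htr5a* and *Htr7* the dimmer probe set lay inside the Y-linked range, at means of 4.19, 3.70, 3.72 and 3.72. Of the Y-linked probe sets, only that of *Zfy2* and the brighter one of *Sry* exceeded them. For these receptors the genotype comparison rests on 1 probe set each that is clear of that range. The place of each probe set along its transcript is not given in the sources used here.

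*Htr7*, the receptor that differed by genotype, read 5.95, 5.90, 5.90, 5.95 and 6.00 in WT mice at its brighter probe set. In *Crtc1*-/- mice it read 6.30, 6.09, 6.22, 6.29 and 6.31. Every *Crtc1*-/- mouse lay above every WT mouse, and *Crtc1*-/- replicate 2 was the closest to the WT range. The means were 5.94 ± 0.04 and 6.24 ± 0.09 (SD, n = 5 per genotype), a difference of 0.30 (SE 0.05, limma, adjusted p = 0.0406 over probe sets and 0.0150 over genes). With 1 probe set per gene, 139 of 18193 genes (0.764%) passed. The spread within genotypes at this probe set was small, 0.07 on the log2 scale, which was above that of 7.4% of the 500 probe sets closest to it in brightness.

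The dimmer *Htr7* probe set read 3.69 ± 0.08 in WT and 3.76 ± 0.17 in *Crtc1*-/- mice (SD, n = 5 per genotype), and the groups overlapped (difference 0.076, limma, adjusted p = 0.919). Its 95% confidence interval, −0.096 to 0.25, overlapped that of the brighter probe set, 0.19 to 0.42. The 2 probe sets' differences were 0.23 apart (two-sided exact permutation test, p = 0.0238, adjusted p = 0.139 over the 7 receptors with 2 probe sets). The call of *Htr7* was also close to the threshold. Over probe sets it was lost when any array except *Crtc1*-/- replicate 2 was left out (adjusted p from 0.0657 to 0.126), while over genes it held with each of the 10 arrays left out (adjusted p from 0.00505 to 0.0484, differences from 0.28 to 0.34). With the replicate number as a block the adjusted p was 0.153 over probe sets and 0.0549 over genes.

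Markers of thalamus and hippocampus had unequal means in the same arrays, though neither list passed after adjustment. For those of striatum and choroid plexus no difference was found (exact permutation p of 0.937 and 0.651). With 5 mice per genotype this does not show equal means. *Htr7* is known for its expression in thalamus and hippocampus as well as cortex. The mean of 8 thalamic markers was 6.40 ± 0.05 in WT and 6.52 ± 0.05 in *Crtc1*-/- mice (SD, n = 5 per genotype, two-sided exact permutation test, p = 0.0159, adjusted p = 0.0583 over 11 marker lists), with ranges of 6.33 to 6.46 and 6.44 to 6.56. None of the 8 passed alone. *Slc17a6*, a vesicular glutamate transporter of thalamic neurons, differed by 0.59 (limma over genes, adjusted p = 0.0574) and *Rgs16* by 0.29 (adjusted p = 0.0834), both with no overlap between genotypes. Of the 8, 3 were below 0, among them *Tnnt1* at −0.092 and *Tcf7l2* at −0.017, and *Prkcd*, a kinase, stood at 0.070. The median difference of the 8 was 0.053. With the thalamic mean as a covariate, an alternative chosen once the data had been seen, *Htr7* differed by 0.22 (SE 0.08, limma over probe sets, adjusted p = 0.729). Hippocampal markers ran the other way, with a mean of 4.74 ± 0.06 in WT and 4.60 ± 0.08 in *Crtc1*-/- mice (SD, n = 5 mice each, p = 0.0159 by exact permutation, adjusted p = 0.0583). These 8 markers were mostly dim, with 1 above the median brightness of all probe sets. All but *Fam163b* lay inside the Y-linked range, *Fibcd1* at 5.23 among them. Of the 8, *Fibcd1* and *Fam163b* fell by 0.41 and 0.28 with no overlap (limma over genes, adjusted p of 0.00922 and 0.0188), and 3 lay above 0. Both calls were lost with the replicate block (adjusted p of 0.0786 and 0.130), and that of *Fam163b* also without WT replicate 1, 2 or 3 or *Crtc1*-/- replicate 3 (adjusted p from 0.0528 to 0.0580). With the hippocampal mean as a covariate *Htr7* differed by 0.31 (limma, adjusted p = 0.489). Both marker means were themselves unequal between genotypes, without passing after adjustment, so neither fit can tell the marker mean from genotype. The part of thalamic or hippocampal tissue in the *Htr7* values was not tested otherwise. Fewer cells of a type and less RNA per cell cannot be told apart in these samples.

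**Figure D2:**
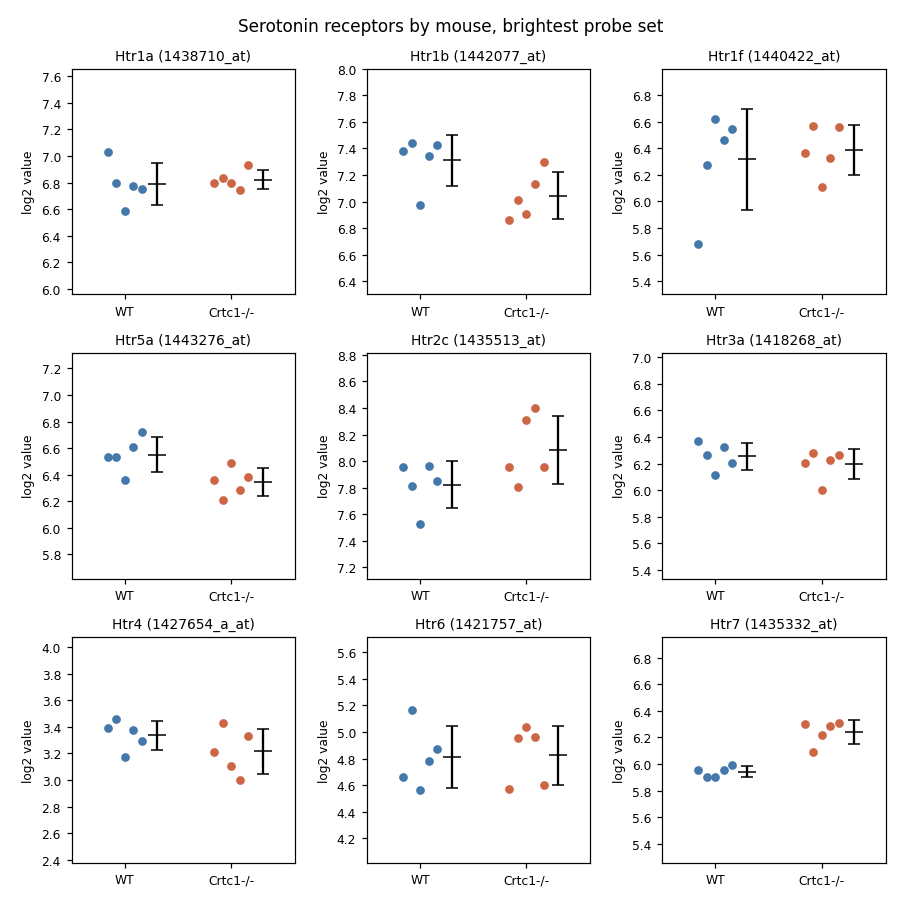
Log2 values of the brightest probe set of each of 9 serotonin receptors (y axes, each spanning the same 1.7 log2 units and not starting at 0) in 5 WT and 5 *Crtc1*-/- mice. Points are mice and bars the mean ± SD, and *Htr7* is the only panel where the genotypes do not overlap.

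Among the Gi/o-coupled receptors, none passed. *Htr1b*, a receptor that sits on axon terminals and restrains transmitter release, gave opposite signs at its 2 probe sets. At the brighter one it read 7.38, 7.44, 6.97, 7.34 and 7.42 in WT mice and 6.86, 7.02, 6.91, 7.13 and 7.30 in *Crtc1*-/- mice. Of the WT mice 4 lay above all *Crtc1*-/- mice, and WT replicate 3 lay among them. The difference was −0.27 (SE 0.10, limma, adjusted p = 0.593), and without WT replicate 3 it was −0.35 (adjusted p = 0.203). The dimmer one, also brighter than the Y-linked range, read from 5.92 to 6.29 in WT and from 5.96 to 6.43 in *Crtc1*-/- mice, a difference of 0.14 (adjusted p = 0.867). The brighter minus the dimmer came to −0.40 (two-sided exact permutation test, p = 0.0397, adjusted p = 0.139 over 7 receptors).

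*Htr5a*, the 5-HT5A receptor, read 6.53, 6.54, 6.36, 6.61 and 6.72 in WT mice and 6.36, 6.21, 6.49, 6.28 and 6.38 in *Crtc1*-/- mice at the brighter probe set. The groups overlapped through WT replicate 3, the lowest WT mouse. The difference was −0.21 (SE 0.07), without a call over all probe sets (limma, adjusted p = 0.517) or over genes (adjusted p = 0.314). Its 95% confidence interval as a fold was 0.777 to 0.967. With each array left out in turn it stayed between −0.25 and −0.16, without a call, and the dimmer probe set gave −0.060.

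*Htr1a*, an autoreceptor of raphe neurons that cortical pyramidal cells also carry, ranged from 6.59 to 7.03 in WT mice and from 6.74 to 6.93 in *Crtc1*-/- mice at its brighter probe set. The *Crtc1*-/- values lay inside the WT range. The difference was 0.033, and the fold lay between 0.915 and 1.14 (95% confidence interval). The dimmer probe set gave 0.084 (limma, adjusted p = 0.849). *Htr1f*, which is expressed in deep cortical layers, had the widest spread of the receptors. Its brighter probe set read 5.68, 6.28, 6.62, 6.46 and 6.55 in WT mice and from 6.11 to 6.57 in *Crtc1*-/- mice, with WT replicate 1 below all other mice. Its fold could lie anywhere between 0.822 and 1.34 there (95% confidence interval), while the steadier dimmer probe set put it between 0.929 and 1.12. The mean of 12 deep layer neuron markers was 8.86 ± 0.10 in WT and 8.85 ± 0.04 in *Crtc1*-/- mice (SD, n = 5 mice each, exact permutation p = 0.770).

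*Htr2c*, the Gq-coupled 5-HT2C receptor and the brightest of the receptor probe sets, read 7.96, 7.81, 7.53, 7.96 and 7.85 in WT mice at its brighter probe set. In *Crtc1*-/- mice it read 7.95, 7.81, 8.31, 8.40 and 7.96. *Crtc1*-/- replicates 3 and 4 stood above all WT mice, and the other 3 lay within the WT range. The difference was 0.27 (SE 0.12, 95% confidence interval 0.0017 to 0.53, limma, adjusted p = 0.687). The 5-HT2C receptor is known for its very high expression in choroid plexus. The 10 choroid plexus markers were dim, with 2 above the median brightness of all probe sets, and their mean was 4.21 ± 0.13 in WT and 4.25 ± 0.10 in *Crtc1*-/- mice (SD, n = 5 mice each, exact permutation p = 0.651). *Ttr*, the brightest of these markers, was uneven, from 5.65 to 7.10 in WT and from 5.86 to 7.47 in *Crtc1*-/- mice. Its difference was 0.33 (limma over genes, adjusted p = 0.840). The dim probe set of *Htr2c* gave −0.016 (limma, adjusted p = 0.982).

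*Htr3a*, the subunit that forms the 5-HT3 channel, read from 6.11 to 6.37 in WT mice and from 6.00 to 6.28 in *Crtc1*-/- mice. The genotypes overlapped almost entirely, and the fold lay between 0.869 and 1.06 (95% confidence interval, difference −0.056). Of 11 markers of the interneurons that carry this channel, 10 were above the median brightness of all probe sets. *Prox1* and *Sncg* lay inside the Y-linked range, at means of 5.16 and 5.48. Of the 11, *Lamp5*, a membrane protein, rose by 0.25 on the log2 scale (limma over genes, adjusted p = 0.0120). None fell, and *Tac2*, a tachykinin precursor, stood at −0.47 (limma over genes, adjusted p = 0.0848). *Lamp5* was the brightest of the 11, above 98.8% of all probe sets, and which cells its signal came from was not tested. The call of *Lamp5* was lost with the replicate block (adjusted p = 0.107) and with each of the 4 marker means as a covariate (adjusted p from 0.134 to 0.672). Those means were themselves unequal between genotypes, though none passed after adjustment. The difference of *Lamp5* stayed between 0.20 and 0.26 in all 21 alternatives. The mean of the 11 was 7.92 ± 0.11 in WT and 7.90 ± 0.08 in *Crtc1*-/- mice (SD, n = 5 mice each, exact permutation p = 0.786). Of 7 markers of interneurons from the medial ganglionic eminence, *Sst* and *Cort* fell by 0.54 and 0.59 (limma over genes, adjusted p of 0.00027 and 0.000767). They encode the peptides somatostatin and cortistatin. The other 5 did not pass, with differences from −0.15 at *Tac1* to 0.10 at *Pvalb*. The mean of all 7, *Sst* and *Cort* included, was lower in *Crtc1*-/- mice (8.39 ± 0.03 against 8.58 ± 0.08, SD, n = 5 mice each, exact permutation p = 0.00794, the smallest that 5 against 5 allow, adjusted p = 0.0583).

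The other Gs-coupled receptors were dim. *Htr4* differed by −0.12 and −0.094 at its probe sets (limma, adjusted p of 0.849 and 0.857), and *Htr6*, a receptor most abundant in striatum, by 0.016 (adjusted p = 0.991). *Htr6* ranged from 4.56 to 5.17 in WT and from 4.57 to 5.04 in *Crtc1*-/- mice. All 3 probe sets lay inside the Y-linked range, so whether they read these receptors or background is not known. For *Htr6* this rests on *Zfy2* and the brighter *Sry* probe set, the only Y-linked ones above it. Their 95% confidence intervals as folds were 0.809 to 1.04 and 0.848 to 1.04 for *Htr4* and 0.837 to 1.22 for *Htr6*. The 10 measured striatal markers had a mean of 6.91 ± 0.25 in WT and 6.89 ± 0.14 in *Crtc1*-/- mice (SD, n = 5 mice each, exact permutation p = 0.937).

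**Figure D3:**
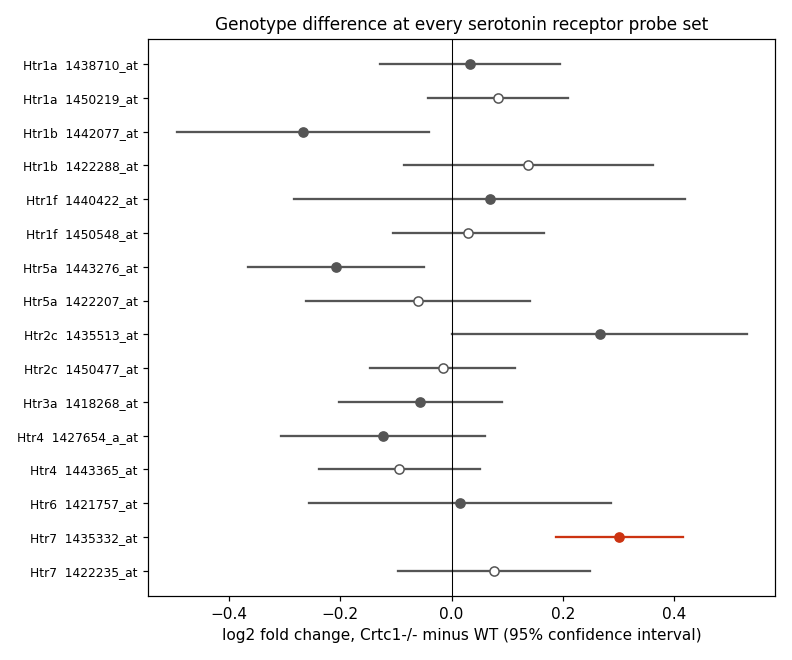
Difference in log2 value between genotypes (*Crtc1*-/- minus WT, x axis) with limma's 95% confidence interval for each of 16 receptor probe sets (y axis). Filled points are the brightest probe set of a receptor, and the one in red, *Htr7* at 0.30, passed the test.

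Outside the receptors, *S100a10* rose in *Crtc1*-/- cortex. It encodes p11, an adaptor that binds the 5-HT1B and 5-HT4 receptors and brings them to the cell surface. At its brightest probe set it read 8.96, 8.95, 9.04, 9.05 and 9.20 in WT mice and 9.29, 9.47, 9.42, 9.44 and 9.64 in *Crtc1*-/- mice. No *Crtc1*-/- mouse overlapped with a WT mouse. The difference was 0.41 (SE 0.07, limma, adjusted p = 0.0365 over probe sets and 0.0153 over genes). Another probe set rose by 0.35 (adjusted p = 0.0166 over probe sets), and the last, a dim one, gave 0.11 (adjusted p = 0.900). Over genes the call of *S100a10* held with each array left out (adjusted p from 0.0116 to 0.0498) and with the replicate block (adjusted p = 0.0201). It was lost without moderation (adjusted p = 0.0751) and with each of the 4 marker means as a covariate (adjusted p from 0.247 to 0.527). Those means were themselves unequal between genotypes, though none passed after adjustment, so such fits cannot tell them from genotype. The difference of *S100a10* stayed between 0.36 and 0.48 in all 21 alternatives. *S100a10* was the one gene to pass of 14 measured partners and regulators of the receptors. Their median difference was −0.0051, against −0.0030 over all genes. *Grk5*, a kinase that desensitizes receptors, had −0.21 (adjusted p = 0.532), and *Dlg4*, the postsynaptic scaffold PSD-95, had −0.14 (adjusted p = 0.567).

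Of the signaling genes, 1 passed. *Plcb4*, a phospholipase C that Gq activates, read 9.99 ± 0.04 in WT and 10.27 ± 0.11 in *Crtc1*-/- mice (SD, n = 5 per genotype), with no overlap between genotypes. The difference was 0.29 (SE 0.05, limma over genes, adjusted p = 0.0327). Over probe sets it missed the threshold (adjusted p = 0.0769), and over genes the call was lost without any of WT replicates 1 to 4 and *Crtc1*-/- replicates 1, 2 and 3 (adjusted p from 0.0609 to 0.0945). It was also lost with the replicate block (adjusted p = 0.0735), without moderation (0.0830) and with each of the 4 marker means as a covariate (0.238 to 0.671). The difference of *Plcb4* ran from 0.25 to 0.32 over the 21 alternatives. None of its other 4 probe sets passed, at 0.023 to 0.40. The median of the 9 measured Gq genes was −0.026. *Plcb1*, a relative of it, had 0.13 (adjusted p = 0.348). None of 9 Gi/o genes passed (median −0.019), where *Gnaz*, a G protein alpha subunit, had −0.13 (adjusted p = 0.258), and none of 12 Gs genes passed (median −0.014), where *Adcy8*, an adenylyl cyclase, had 0.24 (adjusted p = 0.375).

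None of 13 measured genes of serotonin synthesis, transport and breakdown passed, with differences from −0.14 to 0.10 and a median of 0.022. *Tph2*, which makes serotonin in raphe neurons, and *Slc6a4*, the serotonin transporter, are made in cell bodies outside the cortex. They were dim, above 22.1% and 29.6% of all probe sets. *Maoa*, which breaks serotonin down, was above 78.7% and differed by 0.058 (limma over genes, adjusted p = 0.826). *Qdpr*, an enzyme that renews the cofactor of serotonin synthesis, had 0.10 (adjusted p = 0.532).

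**Figure D4:**
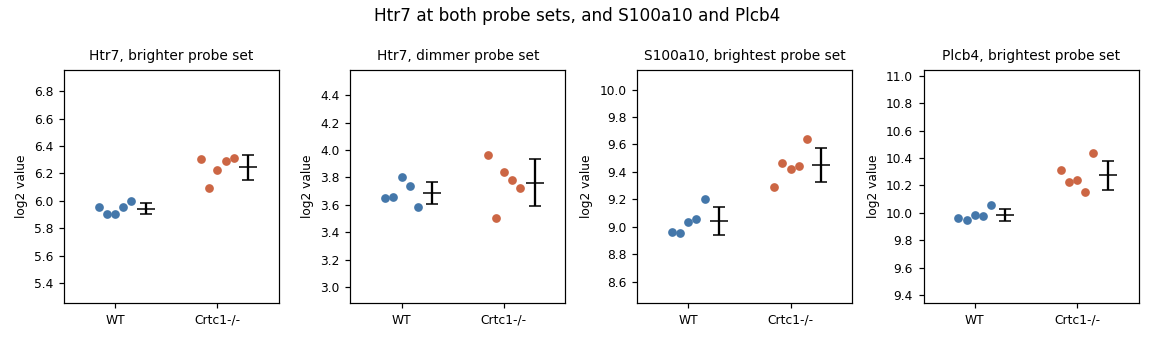
Log2 values (y axes, spanning the same 1.7 log2 units and not starting at 0) of *Htr7* at both probe sets and of *S100a10* and *Plcb4* in 5 WT and 5 *Crtc1*-/- mice, with points as mice and bars as the mean ± SD. The genotypes do not overlap in 3 of the 4 panels, and they overlap at the dimmer *Htr7* probe set.

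**Figure D5:**
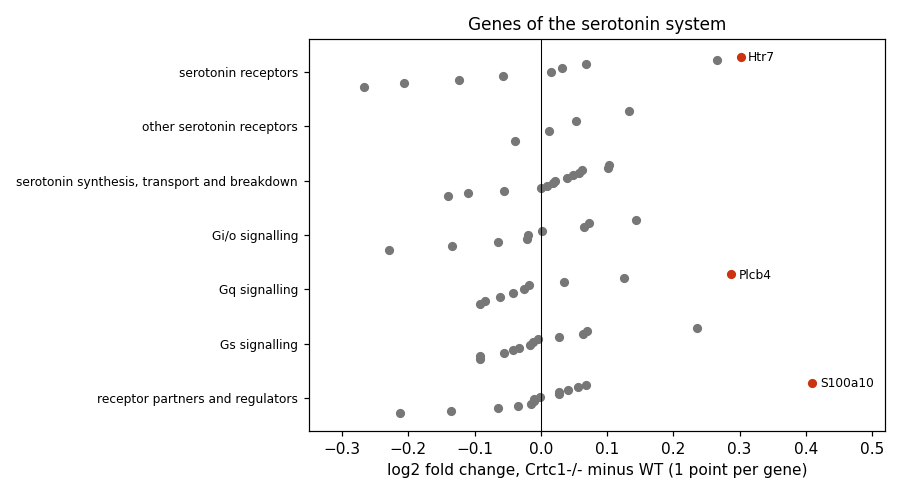
Difference between genotypes (*Crtc1*-/- minus WT, log2 scale, x axis) of each measured gene of 7 lists (y axis), 1 point per gene at its brightest probe set. The 3 red points, *Htr7* at 0.30, *Plcb4* at 0.29 and *S100a10* at 0.41, passed over all genes, and all are above 0.

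For the 3 brightest receptors, the genes whose values followed them most closely over the 10 arrays, after the mean of each genotype was subtracted, were *Pms1* (Pearson r = 0.965), *Fcmr* (0.957) and *4930483K19Rik* (0.939) for *Htr2c*, *Lin9* (0.987), *Fam3c* (0.959) and *Cacnb2* (0.954) for *Htr1b*, and *Rcc1* (0.944), *Kif3b* (0.942) and *Ext2* (0.935) for *Htr1a*. They are the 3 highest of 18192 genes compared for each receptor over the same 10 arrays, and the values describe these arrays. None of these 9 genes passed the test between genotypes.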

How the data were processed

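Cortical RNA (300 ng per mouse) was labelled with the 3′ IVT Express kit and hybridized to GeneChip Mouse Genome arrays. Per the methods, array quality was checked with RACE, and arrays whose normalized unscaled errors ran high were dropped. The deposited values are log2 intensities that the authors summarized to 1 per probe set and array, on a scale shared by the arrays. Background correction, normalization and summarization are not given in the sources used here. The values lay between 2.14 and 13.90, and the array medians between 5.29 and 5.32. With 5 arrays per genotype, their number sets the precision. The p-values of limma set each difference against the spread between these mice, moderated with that of all probe sets or genes.

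Of 45101 probe sets, 64 controls were left out. The annotation names 1 gene for 34945 of the rest, several for 932 and none for 9160. Through gene identifiers, 34741 were given the names of GRCm38.p6, and each of 18193 genes was taken at its brightest probe set. Genotypes were compared with limma 3.58.1 (lmFit, eBayes) under R 4.3.3, two-sided, with no covariate and no filter, and p-values were adjusted over all probe sets or all genes. Limma was first tested on simulated arrays with known changes. All of these were larger than any receptor difference, so they do not show how well changes of that size are found. Marker list means were compared by two-sided exact permutation tests. Arrays with the same replicate number did not deviate together (correlations from −0.33 to 0.087). Whether a number stands for a shared litter or batch is not given in the sources used here, and these correlations cannot settle it. A replicate block also costs degrees of freedom, so a call lost under it does not show pairing.

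The receptors and all lists were chosen with earlier results of these data known. The genes named are *Crtc1*, the receptors, up to 3 genes of each other list by smallest p, and the 3 genes closest to each of the 3 brightest receptors. *Maoa*, *Tph2*, *Slc6a4*, *Tnnt1*, *Tcf7l2*, *Ttr*, *Zfy2*, *Krt10*, *Pvalb*, *Prox1* and *Sncg* were named after their values were seen. The lists also hold markers of oligodendrocytes, astrocytes and microglia. Alternatives changed the normalization, filters, variance prior, array weights, block, covariates, probe set choice and arrays. A search of receptor promoters is not reported here.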

Additional observations from a re-analysis of the deposited data

Results flagged for a closer look

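Of 54 groups of 5 mice examined (the receptor, *Crtc1*, *S100a10* and *Plcb4* probe sets in each genotype), 4 held 1 mouse far from the others, where chance gives about 1 in 20. WT replicate 3 read 6.97 for *Htr1b* at its brighter probe set, with the next WT mouse at 7.34. *Crtc1*-/- replicate 3 read 6.00 for *Htr3a*, with the next *Crtc1*-/- mouse at 6.21. *Crtc1*-/- replicate 4 read 3.91 for *Plcb4* at a dim probe set, with the next at 4.17. WT replicate 5 read 9.08 for *S100a10* at the second of its bright probe sets, with the next at 8.95.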

How the results depend on the processing

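The log2 fold change of *Htr7* stayed above 0 in all 23 alternatives and passed over probe sets in 5 of them. Its value was 0.30 with arrays centred on their medians (adjusted p = 0.0552 from limma), with a trended and robust prior (0.0533), without moderation (0.0676), with the replicate block (0.153) and with the oligodendrocyte covariate (0.431), 0.31 with the hippocampal (0.489) and MGE interneuron (0.700) covariates, 0.22 with the thalamic covariate (0.729) and 0.19 as the mean of both probe sets (0.243). It ran from 0.28 to 0.34 with each array left out. In the alternatives where its call was lost, 0 receptor probe sets passed, so that count was 0 or 1 with each array left out. The thalamic and MGE interneuron covariates were added after the values were seen. Over genes *Htr7* passed in 16 of 21 alternatives.

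The count of all probe sets was 239 with the trended prior, 75 without moderation, 40 with the replicate block, 21, 26, 18 and 7 with the hippocampal, oligodendrocyte, thalamic and MGE interneuron covariates, and 70 to 105 with each array left out. The receptor median was −0.058 with the thalamic covariate and −0.020 to 0.030 with each array left out.

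No other receptor passed in any alternative, and some changed sign. *Htr1a* had −0.047 with the thalamic covariate, *Htr1b* 0.015 with the MGE covariate, *Htr1f* −0.11, −0.050 and −0.32 with the hippocampal, oligodendrocyte and MGE covariates, *Htr3a* 0.050 and 0.13 and *Htr4* 0.014 and 0.079 with the oligodendrocyte and MGE covariates, and *Htr6* −0.049 with array weights. With each array left out, *Htr1a* ran from −0.018 to 0.093, *Htr1f* from −0.091 to 0.14 and *Htr6* from −0.046 to 0.11. The cause was not tested. *Htr2c* stayed above 0 and *Htr5a* below 0 in all 23.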

Other observations

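Of the 4 remaining marker lists none passed after adjustment. The mean of 12 oligodendrocyte markers was 9.85 ± 0.15 in WT and 10.06 ± 0.11 in *Crtc1*-/- mice (SD, n = 5 per genotype, two-sided exact permutation test, p = 0.0317, adjusted p = 0.0697 over 11 marker lists), with all 12 log2 fold changes above 0 and none passing alone. The mean of 7 cortical neuron markers was 9.95 ± 0.04 in WT and 9.89 ± 0.02 in *Crtc1*-/- mice (exact permutation test, p = 0.0238, adjusted p = 0.0655). The 9 astrocyte markers had a mean of 10.56 ± 0.08 and 10.64 ± 0.04 (exact permutation test, p = 0.0794, adjusted p = 0.146), and the 7 microglia markers one of 8.64 ± 0.18 and 8.64 ± 0.09 (exact permutation test, p = 1). *S100a10* differed by 0.38 (limma over genes, adjusted p = 0.247) with the oligodendrocyte mean as a covariate and 0.37 (adjusted p = 0.503) with the thalamic mean, the latter added after the values were seen.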
